A study of Mus musculus with 4 samples.

Results

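The genes described here are Mage, Xlr, Ssx and a few other testis antigen genes, measured in P19, an embryonal carcinoma line of the mouse whose cells differentiate in retinoic acid. They were taken from the array by gene symbol: Mage followed by a letter from a to h and a digit, symbols that begin with Xlr or Ssx, and Tex16, Nxf2, Nxf3 and 4933403O08Rik. Magel2 was left out. The rule found 49 of the 41345 probe sets, which carry 48 symbols; 8 of the 49 are annotated to several of these genes at once and cannot tell them apart. Ssx2ip, which encodes a centrosomal protein, entered only because its symbol begins with Ssx, and is not an Ssx gene.

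Each of 4 conditions had 1 array. The first was the Ctcfl line, 1 P19 clone with the stable integrates pBI-EGFP-FLAG-mCtcfl and pTA-N, after 4 days in 10 µM retinoic acid. The second was wild-type P19 cells (no integrate) in the same retinoic acid. The third and the fourth were the Ctcfl line and wild-type cells that were given the ethanol vehicle and stayed undifferentiated. In the Tet-Off system of the Ctcfl line, doxycycline represses the transgene, and it had been withdrawn 2 days before extraction in both states. The labels disagree on wild-type cells, listing 2 µg/ml doxycycline in one field and ordinary culture in another, and a line that is 1 clone also differs from wild type by its origin. Ctcfl, a testis paralog of the insulator protein Ctcf, had signals of log2 9.56 in the Ctcfl line and 7.13 in wild type in retinoic acid, and of 10.41 and 7.86 in undifferentiated cells.

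Genes of this group are active in male germ cells and mostly silent in somatic tissues, and several are known from tumours, where their products become antigens. Type I Mage genes (Magea and Mageb) and Ssx genes lie mostly in multicopy clusters on the X chromosome and are held silent by DNA methylation. Type II Mage genes (Maged, Magee, Mageh) are expressed widely. Mage proteins bind ubiquitin ligases, and Xlr proteins are relatives of the synaptonemal complex protein Sycp3. Of the 49 probe sets, 46 map to the X chromosome.

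Signals are RMA values on a log2 scale. Olfactory receptor genes stood for unexpressed genes: a signal above the 95th percentile of their 1108 probe sets on the same array, which lay between log2 6.82 and 6.95, is called above background here. By that limit 8 of the 49 members (16.3%) were above background on all 4 arrays, 5 on some and 36 on none, whereas 45.9% of all probe sets were above it on all 4. Comparisons were made on probe sets with a signal of at least log2 6 on 1 or more arrays, which 17 members and 31136 of all probe sets had; the other 32 members are described by their levels. The labelled cell type was checked by its markers. All 10 pluripotency markers were past this filter, which lies below the background limit, so passing it does not show expression. Zfp42, between log2 6.12 and 6.46, was not above background on any array. With retinoic acid 5 of the 10 markers fell in limma, and 10 of 10 measured genes of the retinoic acid response rose. Single arrays have no biological error. The only measure of technical error is the SD with which probe sets of the same gene differ (874 genes). It lay between log2 0.226 and 0.331 in the 4 comparisons of 2 arrays. Such probe sets share their arrays, so this SD leaves out error that is common to a whole array.

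**Figure D1:**
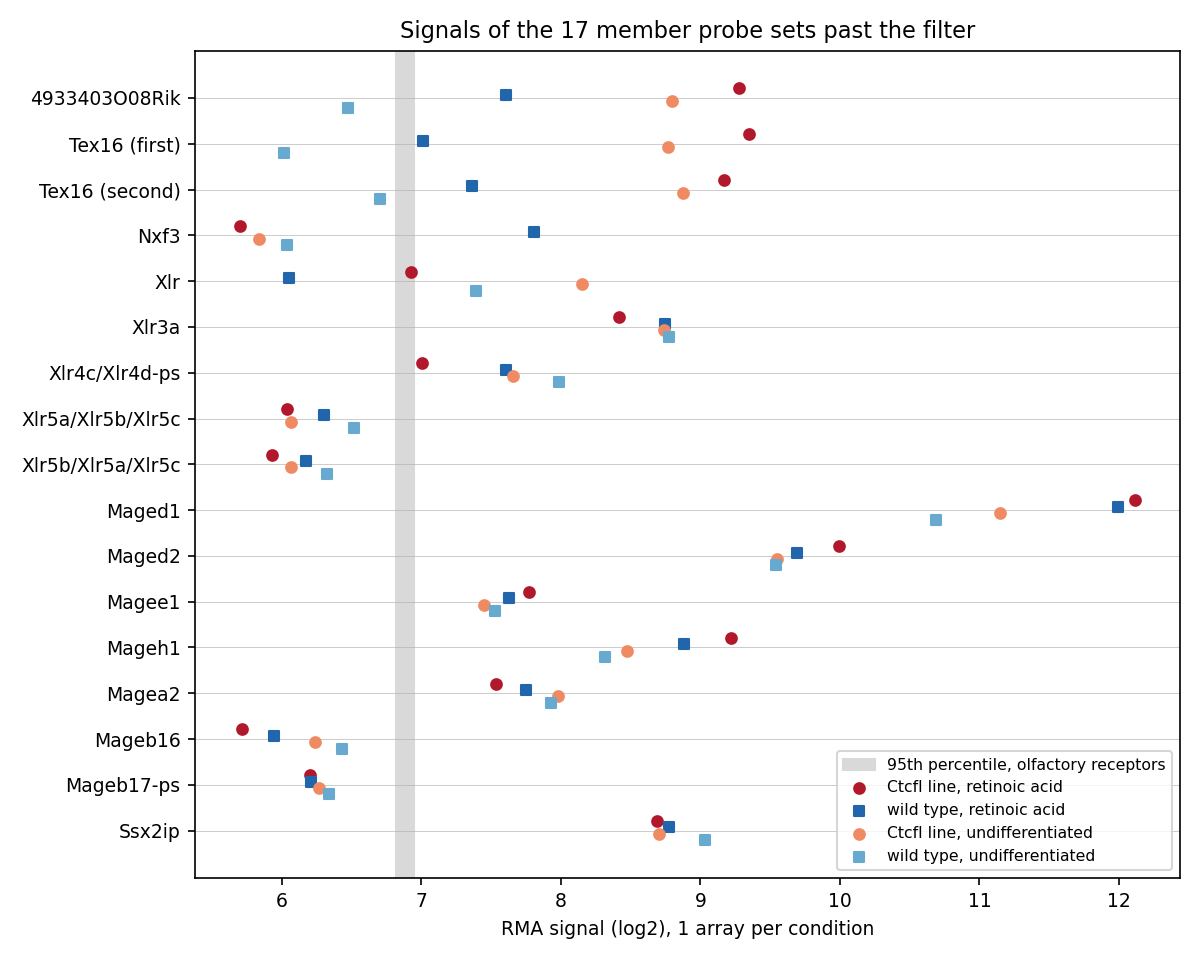
Signal (log2, horizontal axis) of the 17 probe sets past the filter on the 4 arrays, 1 point per array; the grey band spans the olfactory receptor limits of the arrays, log2 6.82 to 6.95. Tex16 and 4933403O08Rik are at log2 8.77 or more in both states of the Ctcfl line, and Nxf3 is above the band only in wild-type cells in retinoic acid.

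The first question was which of these genes differed with the Ctcfl line. Tex16 and its neighbour 4933403O08Rik were higher in it in both states, by log2 1.67 to 2.75, and Xlr had the higher signal in it in both. In retinoic acid Nxf3 was lower in it. Of the Magea, Mageb and Ssx probe sets only that of Magea2 was above background on any array, and it was not 2-fold apart in either state.

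Tex16 is a testis-expressed gene at chrX:111896766-112127326 (GRCm38.p6), and it has 2 probe sets. The first had signals of log2 9.35 in the Ctcfl line and 7.01 in wild type in retinoic acid, and of 8.77 and 6.02 in undifferentiated cells. The second had 9.17 and 7.36 in retinoic acid, and 8.88 and 6.71 in undifferentiated cells, again with the Ctcfl line given before wild type. Both Ctcfl-line arrays were thus above both wild-type arrays, and undifferentiated wild-type cells were the only condition that was not above background. The line difference was log2 2.75 by the first probe set and 2.17 by the second in undifferentiated cells, and log2 2.34 and 1.81 in retinoic acid. Against the background limit of the wild-type array, Tex16 was at least 3.53-fold (first) and at least 3.82-fold (second) higher in the undifferentiated Ctcfl line. The probe sets differed from each other by log2 0.58 and 0.53 in these differences.

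The gene 4933403O08Rik has no assigned function here. It lies 44.1 kb from Tex16, at chrX:112171438-112249350. Its signals were log2 9.28 in the Ctcfl line and 7.61 in wild type in retinoic acid, and 8.79 and 6.48 in undifferentiated cells. As with Tex16, undifferentiated wild-type cells alone were not above background. Its line difference was log2 2.32 in undifferentiated cells, which is at least 3.60-fold against the background limit, and 1.67 in retinoic acid.

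These pairs of values were tested together in limma, with the line and retinoic acid as additive terms over all 31136 probe sets. Tex16 had a line effect of log2 2.54 ± 0.17 (SE) by the first probe set and 1.99 ± 0.17 by the second, and neither passed (adjusted p = 0.118 and 0.119 in limma). For 4933403O08Rik the effect was log2 1.99 ± 0.21 (SE, adjusted p = 0.164 in limma). Their unadjusted p-values were 2.7e-05, 7.7e-05 and 0.000205 in that fit. Of the 17 members 0 were called, with 5 at an unadjusted p under 0.05. Of all probe sets, 1 was called higher with the line (0.00321%) and 0 lower (0%), while 3061 had an unadjusted p under 0.05. Restricted to probe sets with a gene symbol, the same model called both Tex16 probe sets (adjusted p = 0.0145 and 0.0300 in limma) and not 4933403O08Rik (adjusted p = 0.058). With 1 probe set per gene it called the second (adjusted p = 0.0236). With all probe sets and a trended prior it called the first (adjusted p = 0.0385). The call on Tex16 therefore depends on these settings, under which the fitted effect was the same. By single-array difference in retinoic acid, where both lines were above background, the Tex16 probe sets ranked 16 and 63 from the highest of 31136.

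The neighbourhood was read from the same arrays. Within 500 kb of Tex16 and 4933403O08Rik the array has 8 other probe sets, and 4 of them were past the filter: those of Rps6ka6, Apool and Zfp711 and 1 of Hdx. Their line differences ran between log2 -0.42 and 0.44 in undifferentiated cells and between log2 -0.39 and 0.27 in retinoic acid, and 0 were 2-fold apart. On the X chromosome as a whole, 720 other probe sets past the filter had a median line difference of log2 0.06 without retinoic acid and 0.04 with it. The difference was thus seen at the adjacent pair and not at the next genes on either side.

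**Figure D2:**
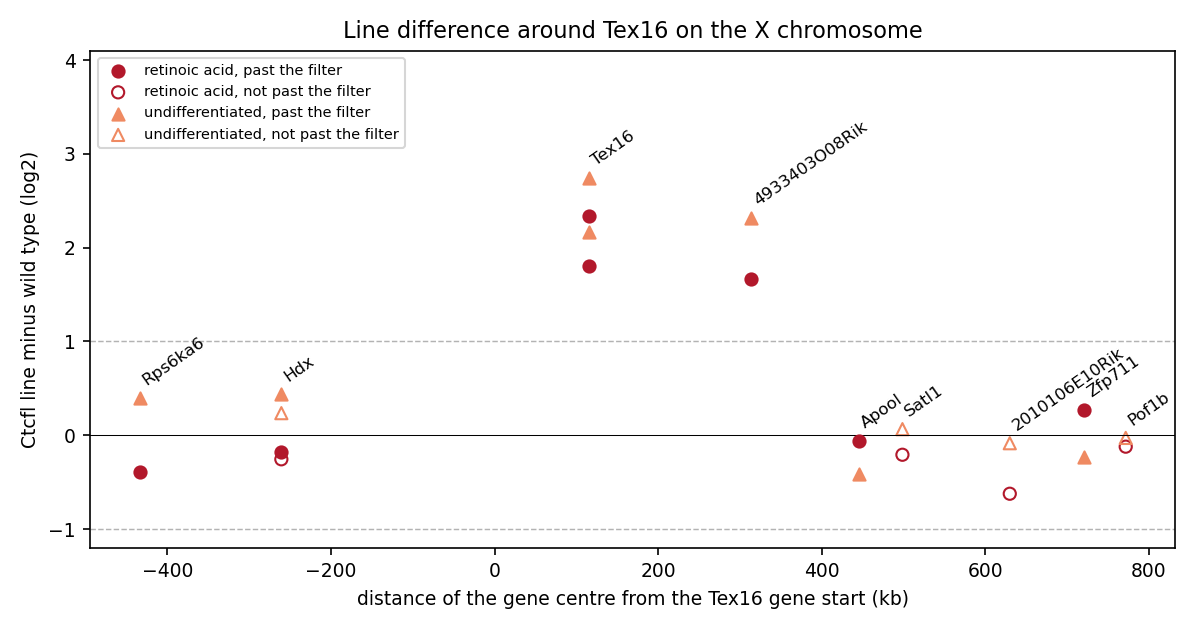
Line difference (Ctcfl line minus wild type, log2) of each probe set within 500 kb of Tex16 and 4933403O08Rik, plotted by the distance of the gene's centre from the Tex16 gene start in kb; dashed lines mark 2-fold. The 3 probe sets of the adjacent pair lie between log2 1.67 and 2.75, and filled neighbours between -0.42 and 0.44.

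Because the pair moved together, their promoter windows are shown, 300 bases around an annotated start, most of them upstream of it, from RefSeq on GRCm38.p6. CpG sites, the targets of DNA methylation, are in capitals. The Tex16 window is chrX:112093270-112093569 (+ strand), which lies inside the span of the gene. The 4933403O08Rik window is chrX:112238799-112239098 (+ strand), likewise inside its gene. Neither window is at the upstream end of the span of its gene, so the sequence there was not examined.
Tex16: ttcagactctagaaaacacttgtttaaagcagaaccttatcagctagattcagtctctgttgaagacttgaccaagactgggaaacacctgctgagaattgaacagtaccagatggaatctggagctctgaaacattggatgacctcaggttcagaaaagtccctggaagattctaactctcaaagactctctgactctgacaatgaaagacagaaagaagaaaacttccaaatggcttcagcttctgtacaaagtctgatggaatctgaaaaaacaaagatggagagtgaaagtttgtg
4933403O08Rik: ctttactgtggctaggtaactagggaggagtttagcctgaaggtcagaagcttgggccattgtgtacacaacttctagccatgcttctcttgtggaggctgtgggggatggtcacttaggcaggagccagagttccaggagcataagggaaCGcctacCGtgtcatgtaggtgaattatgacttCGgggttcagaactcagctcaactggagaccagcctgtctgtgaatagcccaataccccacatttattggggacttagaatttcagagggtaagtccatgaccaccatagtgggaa
The Tex16 window holds 0 CpG sites, as 5.43% of the 32851 windows of the table do, and that of 4933403O08Rik holds 3, where 31.4% hold as many or fewer. In a gapped alignment over their whole length the windows were identical at 49.9% of columns, and the pairs that include the Xlr or Maged1 windows printed further on ranged from 47.7% to 50.7%. Spellings of the CTCF core, AGGGGGC and AGGTGGC, were searched on both strands and matched neither window. Of all windows, 10.6% hold the first spelling and 6.15% the second. Of the 47 windows of 43 member genes, 7 hold the first and 1 the second. Several of the 7 belong to Maged2 alone and some of those overlap, so the windows are not independent.

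Nxf3 encodes a testis-enriched member of the nuclear RNA export factors and lies at chrX:136071523-136139579. Its signal was log2 5.70 in the Ctcfl line and 7.81 in wild type in retinoic acid, and 5.84 and 6.04 in undifferentiated cells. Only wild-type cells in retinoic acid were above background. In retinoic acid the Ctcfl line was thus lower than wild type for Nxf3 by at least 1.99-fold, with a measured log2 difference of -2.11. Markers of other cell types differed in the same comparison. By measured signals the Ctcfl line was the lower by 2-fold or more for 2 of 7 endoderm markers, Gata6 by log2 -1.16 and Ttr by -1.22. It was so for 2 of 8 mesenchyme markers, Dcn by log2 -1.83 and Lum by -1.24, and for 0 of 7 neural markers. The Ctcfl-line signal of Lum, log2 5.78, was not above background, so its difference is not exact. Of the mesenchyme markers only Pdgfra was higher in the Ctcfl line, by log2 0.82. The median difference was log2 -0.40 over the endoderm, -0.30 over the mesenchyme and 0.01 over the neural markers, and their part in the result on Nxf3 was not tested. Its line effect over both states did not pass (adjusted p = 0.511 in limma). The related Nxf2 stayed between log2 4.17 and 4.48, not above background on any array.

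Xlr, the founder of the X-linked lymphocyte-regulated family, lies at chrX:53777118-53797716. In retinoic acid its signal was log2 6.92 in the Ctcfl line and 6.05 in wild type. In undifferentiated cells it was 8.15 in the Ctcfl line and 7.39 in wild type. The Ctcfl-line array was the higher in both states, by log2 0.87 in retinoic acid and 0.76 in undifferentiated cells. The wild-type array in retinoic acid was the only one not above background, and against its limit the difference there was at least 1.02-fold. The line effect of log2 0.81 ± 0.15 (SE) did not pass (adjusted p = 0.270 in limma). Within 500 kb of Xlr, Rtl8c, a gene derived from a retrotransposon, was the 1 of 6 other probe sets past the filter at least 2-fold apart in undifferentiated cells. It had log2 9.25 in the Ctcfl line and 8.41 in wild type in retinoic acid, and 9.81 and 6.72 in undifferentiated cells. The last of these signals was not above background, so the difference that rests on it is not exact. The probe set shared by Rtl8a and Rtl8b was just under 2-fold higher in the undifferentiated Ctcfl line, by log2 0.99, and with retinoic acid by 0.59. Probe sets annotated to both Atf1 and the pseudogene Atf1-ps are also among the 6 and cannot tell these genes apart.

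By measured signals, 3 of the 17 members past the filter were at least 2-fold higher in the undifferentiated Ctcfl line, against 2.11% of all probe sets, and 0 were as much lower (0.996% of all). In retinoic acid 3 were at least 2-fold higher (1.87% of all) and 1 lower (0.376% of all). The 3 are the adjacent pair in both states and the 1 is Nxf3, which against the background limit is at least 1.99-fold lower, so the higher members come from 1 stretch of the X chromosome. Members that passed the filter only where they were high had to differ, so these counts are a description. Over all 49 members the median line difference was log2 -0.04 for undifferentiated cells and -0.07 for retinoic acid. Over the 17 members past the filter it was log2 -0.04 and -0.01, beside 0.00 and -0.01 over the 31136 probe sets past the filter.

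**Figure D3:**
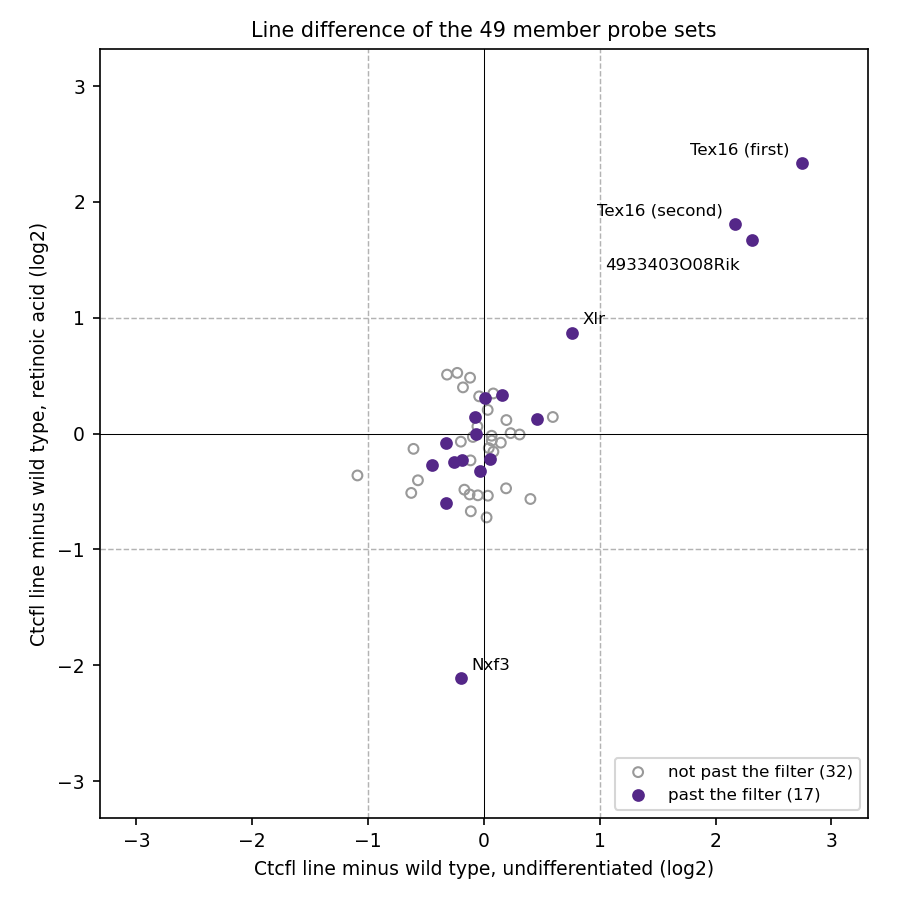
Line difference (Ctcfl line minus wild type, log2) of all 49 members in undifferentiated cells (horizontal) and in retinoic acid (vertical), filled where past the filter; dashed lines mark 2-fold. Tex16 and 4933403O08Rik lie at the upper right, Nxf3 at log2 -2.11 on the vertical axis, and most members near 0.

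The second question was how these genes responded to retinoic acid. Averaged over the lines, Maged1 rose and Xlr fell in limma, and the other 15 members past the filter did not pass. This is 1 member higher, against 2.22% of all probe sets, and 1 lower, against 0.703%. Neither call held when all probe sets were tested without the filter (adjusted p = 0.0785 for Maged1 and 0.0607 for Xlr in limma). In these bulk samples fewer cells of a type and less RNA per cell cannot be told apart. Markers of differentiated cells moved as well: 2 of 7 neural, 1 of 7 endoderm and 1 of 8 mesenchyme markers rose in limma, and their part in the members' differences was not tested.

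Maged1, also called NRAGE, is a widely expressed type II Mage gene whose protein binds the neurotrophin receptor Ngfr; it lies at chrX:94535474-94542025. In the Ctcfl line its signal was log2 12.12 in retinoic acid and 11.15 in undifferentiated cells. In wild type it was 11.99 in retinoic acid and 10.69 in undifferentiated cells. Both retinoic acid arrays were above both undifferentiated arrays. In limma Maged1 rose 2.20-fold, an effect of log2 1.13 with an SE of 0.17 (adjusted p = 0.0444), with differences of log2 0.97 in the Ctcfl line and 1.30 in wild type.

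Xlr went the other way, with log2 6.92 in retinoic acid and 8.15 undifferentiated in the Ctcfl line, and 6.05 and 7.39 in wild type. The retinoic acid arrays were both below the undifferentiated ones. Xlr fell by 1.28 on the log2 scale (SE 0.15, adjusted p = 0.0300 in limma), with differences of log2 -1.23 in the Ctcfl line and -1.34 in wild type. Since wild-type cells in retinoic acid were not above background, the fall there was at least 1.41-fold.

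The promoter windows of these 2 genes are shown for comparison with those above, with CpG sites again in capitals. They are chrX:94541976-94542275 (- strand) for Maged1 and chrX:53797657-53797956 (- strand) for Xlr, each read 5′ to 3′ along its gene.
Maged1: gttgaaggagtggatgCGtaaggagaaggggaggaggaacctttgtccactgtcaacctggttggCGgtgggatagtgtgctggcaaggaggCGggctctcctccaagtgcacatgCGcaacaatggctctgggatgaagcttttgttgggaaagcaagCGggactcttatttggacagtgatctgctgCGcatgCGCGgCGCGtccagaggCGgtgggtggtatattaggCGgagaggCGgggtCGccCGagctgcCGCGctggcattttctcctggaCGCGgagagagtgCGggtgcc
Xlr: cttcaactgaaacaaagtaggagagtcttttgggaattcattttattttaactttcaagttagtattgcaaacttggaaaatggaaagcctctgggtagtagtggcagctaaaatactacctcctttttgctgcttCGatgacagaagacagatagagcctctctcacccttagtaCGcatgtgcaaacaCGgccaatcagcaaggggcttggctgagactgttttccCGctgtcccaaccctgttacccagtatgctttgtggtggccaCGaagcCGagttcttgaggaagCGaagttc
Maged1 holds 20 CpG sites, and 26.5% of all windows hold as many or more. Xlr holds 7, which is the median of all windows. The Xlr window and 1 of the Nxf2 windows are the member windows with GCGGGAA, a form of the E2F site that E2f6 also binds; searched on both strands, 4.6% of all windows hold it.

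The remaining type II genes were above background on all 4 arrays apart from Magee2. Mageh1, a small Mage gene, had log2 9.22 in retinoic acid and 8.47 undifferentiated in the Ctcfl line, and 8.88 and 8.32 in wild type. Its retinoic acid effect of log2 0.65 did not pass (adjusted p = 0.103 in limma). Maged2, mutated in human antenatal Bartter syndrome, had log2 10.00 in retinoic acid and 9.55 undifferentiated in the Ctcfl line, and 9.69 and 9.54 in wild type. Magee1, whose protein binds dystrobrevin, had log2 7.77 and 7.45 in the Ctcfl line, and 7.63 and 7.53 in wild type, with retinoic acid before undifferentiated cells. Both were higher with retinoic acid in both lines, by less than 1.5-fold, and passed in neither effect. Magee2 stayed between log2 5.28 and 5.90.

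Tex16, 4933403O08Rik and Nxf3 were above background in wild-type cells in retinoic acid and not in undifferentiated wild-type cells. In the Ctcfl line the differences were log2 0.48 for 4933403O08Rik and -0.14 for Nxf3, and in wild type 1.13 and 1.77. Against the background limit of the undifferentiated array these wild-type differences are at least 1.58-fold and at least 1.82-fold. The first Tex16 probe set differed by log2 0.58 in the Ctcfl line and 1.00 in wild type (at least 1.05-fold), and the second by 0.29 and 0.65 (at least 1.33-fold in wild type). None of these retinoic acid effects passed in limma over all probe sets (adjusted p = 0.122 for 4933403O08Rik, 0.369 for Nxf3, and 0.0922 and 0.213 for Tex16). Restricted to probe sets with a gene symbol, the first Tex16 probe set passed (adjusted p = 0.0494). Whether responses differed between the lines has no test with 1 array per condition. The difference of responses was log2 -1.91 for Nxf3, a value that rests on 3 signals not above background. It was the only member at least 2-fold apart by measured signals, where 1.57% of all probe sets were that far apart downwards and 2.65%, with 0 members, upwards.

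By measured signals, in the Ctcfl line 0 of the 17 members were at least 2-fold higher with retinoic acid (4.72% of all probe sets) and 1, Xlr, lower (1.28% of all). In wild type 3 were higher (3.69% of all), namely Maged1, 4933403O08Rik and Nxf3, and 1, Xlr, lower (1.97% of all). Of these 4, only Maged1 was above background on both sides, and the bounds of the others given above lie under 2-fold. Over all 49 members the median was log2 -0.06 in the Ctcfl line and -0.03 in wild type. Over the 17 members past the filter it was log2 -0.03 in both, beside -0.03 and -0.01 over the 31136 probe sets past the filter.

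**Figure D4:**
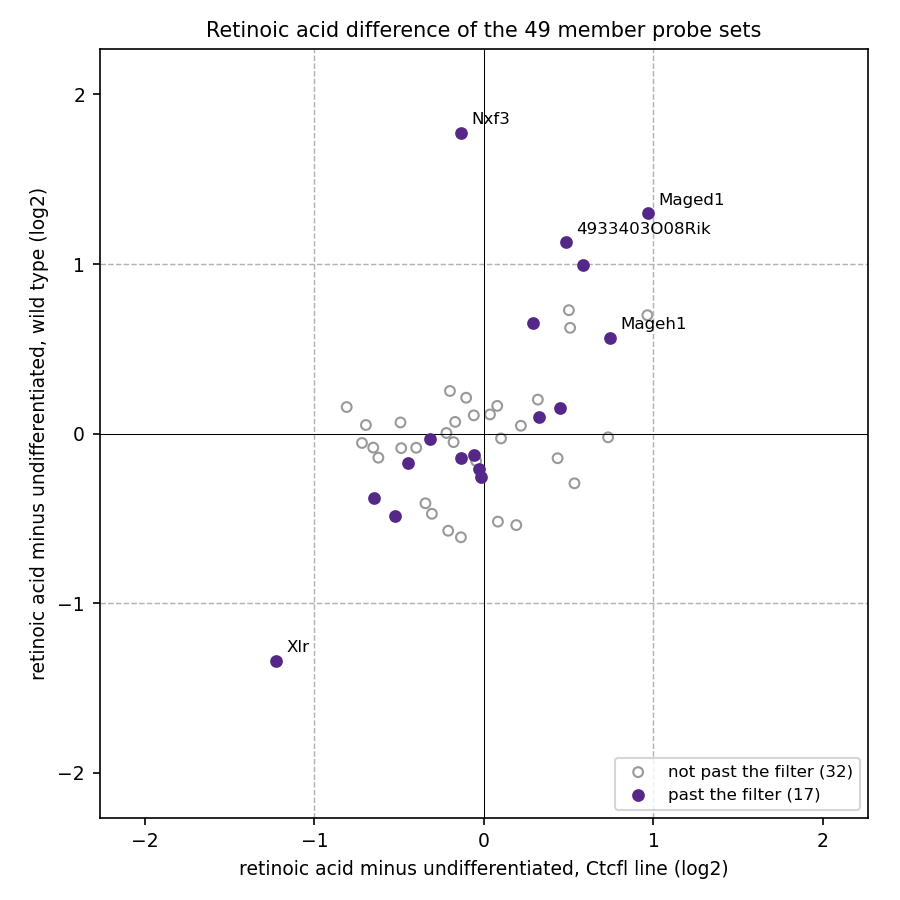
Retinoic acid difference (retinoic acid minus undifferentiated, log2) of all 49 members in the Ctcfl line (horizontal) and in wild type (vertical), filled where past the filter; dashed lines mark 2-fold. Xlr has measured differences of log2 -1.23 and -1.34, and the second is bounded at 1.41-fold since wild type in retinoic acid was not above background. Maged1 is higher by log2 0.97 and 1.30, and Nxf3 is higher in wild type by 1.77.

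The other Xlr genes except the pseudogene Xlr4d-ps lie in 1 cluster, between the start of Xlr4a at chrX:73074343 and the end of Xlr5c at chrX:73293863, where Xlr3b, Xlr4b and Xlr4c are known to be imprinted in the brain. Xlr3a had signals of log2 8.42 in the Ctcfl line and 8.74 in wild type in retinoic acid, and 8.74 and 8.78 in undifferentiated cells. The probe set shared by Xlr4c and the pseudogene Xlr4d-ps had log2 7.01 and 7.61 in retinoic acid and 7.66 and 7.98 in undifferentiated cells, with the Ctcfl line before wild type. Both were above background on all arrays and neither passed in limma (line effects of log2 -0.18 and -0.46, adjusted p = 0.759 and 0.458). The 2 probe sets annotated to Xlr5a, Xlr5b and Xlr5c together were past the filter but not above background. One had log2 6.04 in the Ctcfl line and 6.31 in wild type in retinoic acid, and 6.07 and 6.52 in undifferentiated cells, and the other 5.93 and 6.18 in retinoic acid, and 6.06 and 6.32 in undifferentiated cells. The other 6 ranged from log2 3.30 to 5.81. Among them Xlr4b was 2-fold apart in undifferentiated cells (log2 3.30 in the Ctcfl line, 4.39 in wild type; 3.49 and 3.85 in retinoic acid), which is below background on both sides, so no fold is given. Copies in this cluster are known to be near-identical, so a probe set named for 1 copy may read others.

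Type I Mage genes were mostly near background. Of 16 probe sets, 15 were not above background on any array, and Magea2 was the exception. Magea2, at chrX:155027201-155033313, had log2 7.53 in the Ctcfl line and 7.75 in wild type in retinoic acid, and 7.98 and 7.93 in undifferentiated cells. The retinoic acid arrays were the lower in both lines, by log2 -0.45 in the Ctcfl line and -0.18 in wild type, and its retinoic acid effect did not pass (adjusted p = 0.341 in limma). Mageb16 and the pseudogene Mageb17-ps were past the filter but not above background. Mageb16 had log2 5.71 in the Ctcfl line and 5.94 in wild type in retinoic acid, and 6.24 and 6.43 in undifferentiated cells. Mageb17-ps had 6.20 and 6.21 in retinoic acid, and 6.26 and 6.33 in undifferentiated cells. The remaining 13 ranged from log2 2.48 to 5.97. All 11 probe sets of the Ssx family, whose human relatives are fused to SS18 in synovial sarcoma, lay between log2 2.63 and 5.85, not above background on any array. Ssx2ip, on chromosome 3, had log2 8.69 in the Ctcfl line and 8.78 in wild type in retinoic acid, and 8.71 and 9.03 in undifferentiated cells, and passed in neither effect.

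The promoter windows differ between the families in a way that the symbol rule did not use. Type II Mage windows held a median of 16 CpG sites (8 windows of 5 genes), type I Mage windows 2 (14 windows), Ssx windows 1 (9 windows) and Xlr windows 7 (11 windows). The type I range was wide, from 0 to 20. Magea2, the type I gene above background, holds 9 CpG sites, fewer than Mageb3 with 20, Mageb4 with 11 and Magea8 with 10, which were not above background on any array.

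**Figure D5:**
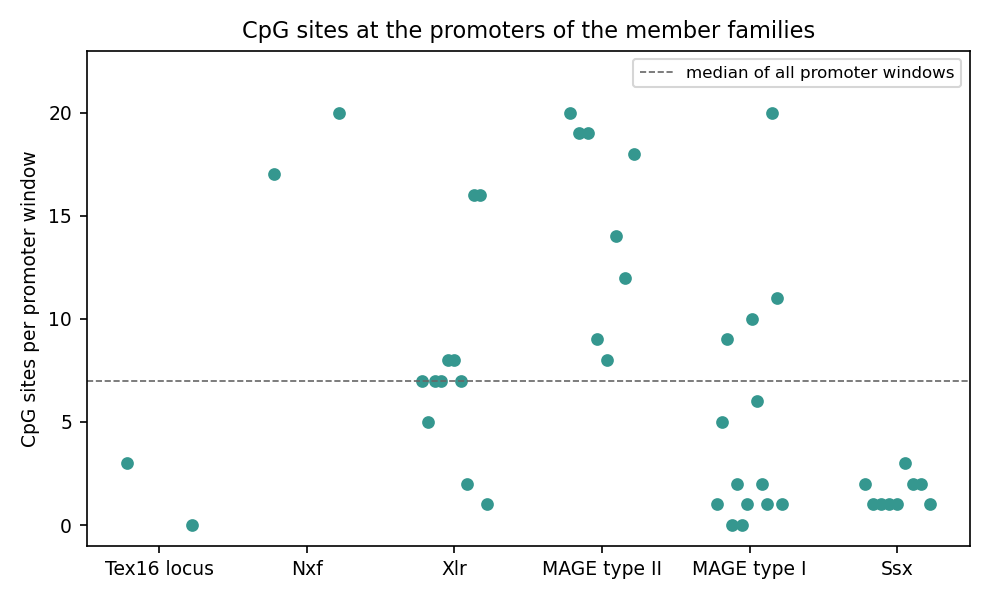
CpG sites per promoter window of 300 bases, 1 point per window, by family; the dashed line is the median of all windows, 7. Type II Mage windows lie at 8 or more, Ssx windows at 3 or fewer, and type I Mage windows between 0 and 20. Windows of the Tex16 locus lie inside the spans of their genes and not at the upstream ends. Ssx2ip, with 36, is not drawn.

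Genes that act with these members were taken from lists, all to be read against the same fit over all probe sets, which called 0.00321% higher and 0% lower with the line and 2.22% higher and 0.703% lower with retinoic acid. At an unadjusted p under 0.05 it held 3061 of 31136 probe sets for the line and 6412 for retinoic acid. A gene that did not pass is not shown to be equal between the lines. In the simulation described below the fit called 0% of 2-fold line changes. Of 20 partners of Mage proteins and parts of the SMC5/6 complex, 0 passed in limma for the line (1 at an unadjusted p under 0.05). With retinoic acid 1 of them rose, the homeobox gene Msx2 (3.34-fold, adjusted p = 0.019 in limma). By single arrays 2 of the 20 were at least 2-fold lower in the undifferentiated Ctcfl line, where 0.996% of all probe sets were. Unc5a, a netrin receptor, had log2 8.11 in the Ctcfl line and 9.20 in wild type there. Prkaa2, a catalytic subunit of AMPK, had 8.55 and 9.56. In retinoic acid their line differences were only log2 -0.01 for Unc5a and -0.18 for Prkaa2. Trim28, the corepressor that type I Mage proteins bind, had line differences of log2 0.05 without retinoic acid and -0.14 with it. Of 20 genes that silence germline and testis antigen genes, 0 passed in limma for the line (0 at an unadjusted p under 0.05). By single arrays 0 of them were 2-fold apart between the lines in undifferentiated cells. There Morc2a was higher in the Ctcfl line by log2 0.90 and Atf7ip lower by log2 -0.88. With retinoic acid 2 of the 20 fell in limma. Dnmt3b, a de novo DNA methyltransferase, fell 7.04-fold (adjusted p = 0.0107), and its cofactor gene Dnmt3l fell 2.07-fold (adjusted p = 0.0444). Dnmt1, the maintenance methyltransferase, ran between log2 11.40 and 11.47 on the 4 arrays.

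Among 13 synaptonemal complex and meiotic cohesin genes, 12 had a value (Sycp3 had none) and 7 were past the filter. Of these 7, 0 passed in limma for the line (2 at an unadjusted p under 0.05) or retinoic acid (1). Some of the 7 were not above background on any array. Of 20 germline genes silenced by DNA methylation, 13 were past the filter. Of these, 0 passed in limma for the line (0 at an unadjusted p under 0.05) or retinoic acid (1). Their median line difference was log2 -0.13 without retinoic acid and -0.07 with it. Most of the 13 were not above background on any array, so these medians mainly compare signals under the limit. The testis genes Gal3st1, Prss50 and Stra8, which Ctcfl is known to bind in mouse germ cells, did not pass for the line. Their line effects were log2 -0.27, 0.00 and 0.00 (adjusted p = 0.629, 0.995 and 0.998 in limma). Of these only Gal3st1 was above background. Prss50 (log2 6.57 to 6.67) and Stra8 (log2 6.35 to 6.82) were under the limit of the array on every array. Their effects of 0.00 therefore do not show whether they responded. Ctcfl itself had a line effect of log2 2.49 and did not pass in the fit over all probe sets either (adjusted p = 0.0916 in limma). Ctcf had one of log2 0.15 (adjusted p = 0.799).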

How the data were processed

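Total RNA of 4 P19 samples was biotin-labelled and hybridised to Affymetrix arrays, 1 per condition. The deposited table holds log2 signal values; per the labels, the authors obtained them with RMA. The submitters' processing notes list Expression Console and Transcriptome Analysis Console. Their versions, and a genome build, are not given in the sources used here. Array medians lay between log2 6.95 and 6.96 and correlations between arrays between 0.961 and 0.985. No further normalization was applied. Genes came from the platform annotation: 23521 probe sets had 1 symbol, 1814 several, and 16010 were not listed and are unnamed here. Positions and promoter windows came from RefSeq tables on GRCm38.p6.

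Differences of single arrays were called at 2-fold, with no test. Line and retinoic acid effects came from limma 3.58.1 in R 4.3.3 (lmFit, eBayes) with both terms additive; this takes the interaction as error (1 residual degree of freedom, prior 4.00). It was fitted to 31136 probe sets with a signal of at least log2 6, p-values two-sided, adjusted by Benjamini-Hochberg over all, threshold 0.05. On simulated data of that size for the line effect, it called 0% of 100 simulated 2-fold changes and 82% of 100 simulated 4-fold changes. Of its 87 calls 5.75% were false. The simulated arrays had independent noise and no retinoic acid effect or difference of responses, unlike the real ones. In the real fit 1 probe set was called with the line, so the 82% does not give its power on these arrays. P-values measure the spread between these arrays only, and the number of arrays limits precision. Where a signal was not above the olfactory receptor limit of its array, a fold was computed against that limit and given as "at least"; log2 differences are as measured.

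Every member could be named. Of other lists, up to 4 genes were named, the passing ones by p and then those with the largest difference, besides Ctcfl and Ctcf. Trim28, Dnmt1, Zfp42, Ttr, Lum, Pdgfra, Gal3st1, Prss50, Stra8, the neighbours and the Mage genes under other symbols were chosen after their values were seen. Members and lists were chosen with earlier results of these data known. Lists used 1 probe set per gene, the one with the highest mean. The alternatives were other filters, quantile normalization, 1 probe set per gene, annotated probe sets only, other variance priors, other fold thresholds and means in place of medians.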

Additional observations from a re-analysis of the deposited data

Results flagged for a closer look

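The retinoic acid difference of Nxf3 had opposite signs in the lines, at log2 -0.14 in the Ctcfl line and 1.77 in wild type, and the difference of responses was log2 -1.91. The Ctcfl-line value lies within the technical SD of log2 0.331 between 2 signals not above background, so its sign carries no direction. This difference was not tested, since each condition had 1 array. The value rests on the wild-type array in retinoic acid (log2 7.81), while the other 3 signals, between log2 5.70 and 6.04, were not above background.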

How the results depend on the processing

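No paired analysis was possible because each condition had 1 array, and leaving out an array leaves no residual degree of freedom, so that was not run. Members called higher with the line were 0, and 1 with 1 probe set per gene, 2 with annotated probe sets only and 1 with a trended prior. All probe sets called higher with the line were 1, and 5, 6 and 15 under those settings; called lower they were 0, and 3, 4 and 2, and 1 with a filter at log2 7, at the olfactory receptor limit and with quantile normalization. With no filter, members called with retinoic acid were 0 higher and 0 lower, as Maged1 and Xlr no longer passed (adjusted p = 0.0785 and 0.0607 in limma), and all probe sets called were 128 higher and 41 lower, in place of 691 and 219. With annotated probe sets only, 2 members were called higher, and lower calls over all were 442, and 447 with 1 probe set per gene. Of 2-fold counts of members, no filter gave 1 lower in the undifferentiated Ctcfl line (Xlr4b), and quantile normalization gave 1 higher with retinoic acid in the Ctcfl line. A 3-fold threshold gave 0 lower with retinoic acid in either line and 1 higher in wild type. A 1.5-fold threshold gave 2 lower in the Ctcfl line in retinoic acid, 2 higher and 2 lower with retinoic acid in the Ctcfl line, 5 higher in wild type, and 2 lower in the difference of responses. Over the 17 members past the filter, the mean line difference in undifferentiated cells was log2 0.40 and the median -0.04. Of the other comparisons between a setting and the reported value, 115 counts stayed within 1.5 times and 34 medians of the members past the filter within the technical SD, but 15 of these medians changed sign. With a filter at log2 7 the retinoic acid median was log2 0.29 in the Ctcfl line and 0.15 in wild type, in place of -0.03 in both, and that of the difference of responses -0.27 in place of -0.04. For effects of single members, 241 comparisons between a setting and the main fit kept the call, 5 gained it and 2 lost it. Outside quantile normalization the fitted effect was the same, so its direction could not change. Signal over background limits mainly the 36 members that were not above background on any array.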

Other observations

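Mage genes under other symbols gave further values. Magel2, an imprinted gene of the Prader-Willi region, had log2 7.61 in retinoic acid and 9.06 undifferentiated in the Ctcfl line, and 8.93 and 10.18 in wild type. It fell 2.55-fold with retinoic acid (adjusted p = 0.0289 in limma), opposite to Maged1, and was lower in the Ctcfl line by log2 -1.32 in retinoic acid and -1.12 in undifferentiated cells (line effect not passed, adjusted p = 0.183). Ndn, the imprinted gene of necdin, was higher with retinoic acid by log2 0.67 in the Ctcfl line and 0.75 in wild type and did not pass (adjusted p = 0.0845). Tro and Nsmce3, the Mage subunit of the SMC5/6 complex, ran between log2 8.20 and 8.40 and between log2 7.36 and 7.66.

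Among 8 other RNA export genes, 0 passed in either effect in limma (1 for the line and 0 for retinoic acid at an unadjusted p under 0.05). Nxf7, a relative of Nxf3, had log2 6.36 in the Ctcfl line and 6.49 in wild type in retinoic acid, and 6.23 and 8.22 in undifferentiated cells. Only undifferentiated wild-type cells were thus above background for Nxf7, where for Nxf3 it was only wild-type cells in retinoic acid.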
